A study of Mus musculus with 14 samples.

Results

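The genes described here encode 10 plasma membrane carriers of amino acids: the light chains Slc7a5, Slc7a6, Slc7a7, Slc7a8 and Slc7a11, their heavy chain Slc3a2, the cationic carrier Slc7a1, and the sodium-coupled carriers Slc38a1, Slc38a2 and Slc38a5. They were taken by symbol from a table of raw counts with 54532 rows, and each symbol matched 1 row. The rule uses no measured value, but the genes were chosen with earlier results of these data known. Their counts beside those of all genes thus describe the set and do not test it. RNA had been sequenced in bulk from 14 libraries of mouse bone marrow, sorted either as LT-HSC (long-term haematopoietic stem cells, which maintain blood formation) or as GMP (granulocyte-monocyte progenitors, which give rise to neutrophils and monocytes). The series title places the study in fatty acid metabolism and the differentiation block of pre-leukaemia. The 4 groups were AML1-ETO LT-HSC (3 libraries), control LT-HSC (4), AML1-ETO GMP (3) and control GMP (4).

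All mice were C57BL/6. AML1-ETO mice have the genotype label Runx1-Runx1t1, the mouse form of a leukaemia fusion that joins the DNA-binding part of the transcription factor RUNX1 to the corepressor-binding protein RUNX1T1; control mice are labelled WT. Per the labels, every sample, controls included, came from mice given intraperitoneal poly(I:C), a double-stranded RNA mimic, at 5 mg/kg in 4 doses on alternate days. In AML1-ETO mice it induced the fusion through Mx1-Cre, a recombinase under an interferon-responsive promoter that also acts outside the blood. The labels do not say whether controls carried Mx1-Cre, give no age or sort markers, and leave unsaid which libraries are from different animals. The p-values therefore set each difference between groups against the scatter among the libraries of its fit, and that scatter may be technical. Cells were kept in DMEM with 2% serum around sorting.

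The libraries held 13210952 to 19403864 counts. Levels are in CPM, each count scaled to a common library size (counts-per-million) after TMM normalization. Runx1t1, whose counts include the fusion transcript, stood at 85.5 to 164 CPM in AML1-ETO LT-HSC, against 0 to 18.1 CPM in control LT-HSC, and at 26.0 to 45.6 CPM in AML1-ETO GMP, against 1.69 to 2.73 CPM in control GMP. The summed CPM of 10 GMP markers was 21923 to 35644 in AML1-ETO GMP and 29471 to 33636 in control GMP, against 1187 to 1440.3 in AML1-ETO LT-HSC and 127 to 461 in control LT-HSC. The summed CPM of 10 LT-HSC markers ran the other way, with 33.2 to 269 CPM in AML1-ETO GMP and 28.4 to 34.1 CPM in control GMP, against 776 to 991 CPM in AML1-ETO LT-HSC and 383 to 1441 CPM in control LT-HSC. The lowest of these LT-HSC libraries, control replicate 3, had no count of the marker Procr. Some libraries stood apart by markers of other cell types. Control LT-HSC replicate 3 had 975 CPM of summed T and NK cell markers, against 173 to 235 CPM in the other control LT-HSC libraries. Of these markers 5 of 7 tested were called lower with AML1-ETO in LT-HSC, and 0 higher. Summed B and plasma cell markers stood at 114 to 644 CPM in AML1-ETO LT-HSC, where 9 of the 10 had counts and Ms4a1 was at 0, against 13057 to 76471 CPM in control LT-HSC, the highest in replicate 2, where all 10 had counts. In AML1-ETO GMP, replicate 1 was high in erythroid and monocyte markers and replicate 3 in megakaryocyte markers.

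Cells import essential amino acids through families of carriers with overlapping substrates. The Slc3a2 product, CD98 heavy chain, does not transport by itself: it holds each light chain at the membrane, and the light chain exchanges one amino acid for another. Sodium-coupled carriers of the SLC38 family load cells with glutamine and other small neutral amino acids, which the exchangers then trade for leucine and other large ones, and leucine and arginine in the cell are sensed by the growth kinase complex mTORC1. When amino acids run short, the kinase GCN2 and the transcription factor ATF4 raise several of these carriers together with enzymes of amino acid synthesis.

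With AML1-ETO, the carriers of LT-HSC changed in both directions. Slc7a8 rose 30.0-fold, Slc7a1 fell by 1.76 on the log2 scale, and Slc38a5 fell to 0 counts in all AML1-ETO LT-HSC libraries, against 9.0 to 43.1 CPM in control LT-HSC. Of the 10 genes 9 passed the filter on low counts, and of these 1 was higher and 2 were lower by edgeR's quasi-likelihood test at an adjusted p under 0.05, a threshold that 12.3% of 14589 genes passed (7.59% higher and 4.69% lower). Libraries of the 2 genotypes did not overlap for 3 of the 10 genes that were higher and 4 that were lower, against 28.5% of all genes tested (15.6% higher and 12.8% lower). In GMP the 2 calls, Slc7a8 and Slc38a2, were both higher and 0 of the 10 genes tested were called lower, against 9.43% of 13981 genes called (5.47% higher and 3.96% lower). At an unadjusted p under 0.05, as with DESeq2, 4 were higher and 2 lower in GMP. There 2 transporter genes were higher and 2 lower without overlap, against 26.7% of all genes (10.6% higher and 16.1% lower). The median log2 fold change of the transporter genes tested was -0.24 in LT-HSC and 0.47 in GMP, against 0.03 and -0.03 over all genes tested, which describes the list and is no test of it. Bulk samples cannot tell fewer cells of a type from less RNA per cell, here and in what follows.

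**Figure D1:**
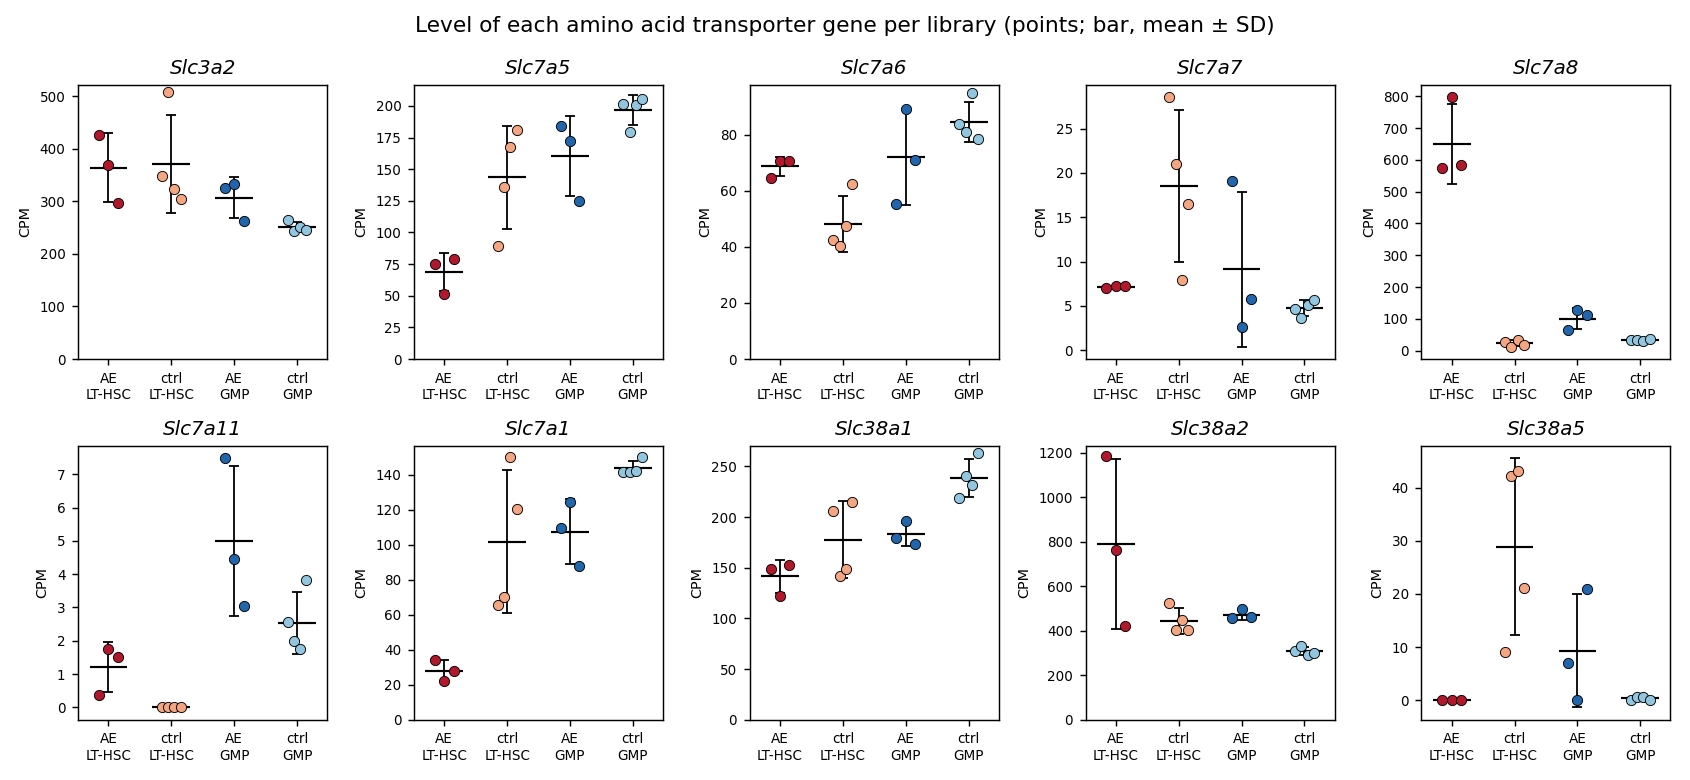
Level of each transporter gene in CPM (vertical axis, linear, own scale per gene) in every library (points) of AML1-ETO LT-HSC, control LT-HSC, AML1-ETO GMP and control GMP (AE, AML1-ETO; ctrl, control), with the group mean and SD as bars. Slc7a8 in AML1-ETO LT-HSC (573 to 797 CPM) stands above all other libraries, and Slc38a5 is at 0 in AML1-ETO LT-HSC.

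Per kilobase of exon the order of the carriers differed between the groups. In AML1-ETO LT-HSC the level per kilobase (CPM per kb of the union of a gene's exons) was highest for Slc7a8 (130.1), then Slc3a2 (103) and Slc38a2 (89.4), and these 3 overlapped in range. In control LT-HSC the order was Slc3a2 (105), Slc38a2 (50.3) and Slc7a5 (38.7), and Slc7a8 was second to last at 4.6 CPM per kb. The first 3 places in AML1-ETO GMP were Slc3a2 (87.0), Slc38a2 (53.4) and Slc7a5 (43.3), with Slc7a8 next at 20.1, and in control GMP they were Slc3a2 (71.2), Slc7a5 (53.1) and Slc38a2 (34.9). Among the top 4 of each group, the ranges of neighbours in this order overlapped only for Slc38a2 and Slc7a5 in control LT-HSC, beside the first 3 of AML1-ETO LT-HSC. Lower down, neighbours overlapped in some cases, as from Slc38a5 to Slc7a8 in control LT-HSC, and not in others, as from Slc7a1 to Slc7a11 in control GMP. Slc7a11 was last or second to last in every group, at 0 to 0.359 CPM per kb. Divided by the longest coding transcript instead, Slc38a2 came first in AML1-ETO LT-HSC (169 against 159 for Slc7a8) and second in control GMP.

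The heavy chain gene Slc3a2 (chr19:8706882-8723369, minus strand, mm10, GENCODE M21) had the smallest spread of the set over the 14 libraries (root mean square 0.301 on the log2 CPM scale). It had 427, 369.7 and 296 CPM in AML1-ETO LT-HSC, against 348, 508, 324 and 304 CPM in control LT-HSC, and 326, 333 and 262 CPM in AML1-ETO GMP, against 265, 243, 252 and 246 CPM in control GMP. The genotypes overlapped in both cell types, and neither difference passed the test, with a log2 fold change of 0.07 ± 0.23 (SE, adjusted p = 0.918) in LT-HSC and 0.31 ± 0.10 (adjusted p = 0.115) in GMP. The GMP difference passed with DESeq2 (adjusted p = 0.0168) and without AML1-ETO replicate 3 (0.0268). In LT-HSC the sign itself turned under upper-quartile scaling, to -0.07. Among the RefSeq windows of 250 bases before to 50 after a start site that were found for 8 of the 10 genes, it alone held the RUNX motif TGTGGT on either strand, which 16.8% of all 32851 windows hold. Its 250 bases before the start (GRCm38.p6, minus strand, chr19:8713898-8714147) are shown for that reason, 5′ to 3′, with the match in capitals. That RefSeq start lies inside the gene as GENCODE M21 bounds it. A motif match is a description of these letters and not a binding site.

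Slc3a2 upstream: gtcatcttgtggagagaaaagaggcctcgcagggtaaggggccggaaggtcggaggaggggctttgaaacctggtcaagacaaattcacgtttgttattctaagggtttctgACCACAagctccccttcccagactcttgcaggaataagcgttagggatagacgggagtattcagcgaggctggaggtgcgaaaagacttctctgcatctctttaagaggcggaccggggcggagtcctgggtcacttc

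Slc7a8 (chr14:54722209-54781946, minus strand) encodes LAT2, a light chain that exchanges neutral amino acids of small and large size. It had 573, 797 and 583 CPM in AML1-ETO LT-HSC, against 28.7, 12.9, 33.4 and 17.2 CPM in control LT-HSC. All 3 AML1-ETO libraries lay more than 10-fold above every control library. The log2 fold change was 4.91 ± 0.37 (adjusted p = 0.000594), and the call held without any single library. In GMP it had 64.2, 127 and 111 CPM with AML1-ETO, against 34.6, 34.5, 29.4 and 36.6 CPM in control GMP, again with no overlap. That rise was 1.60 ± 0.23 on the log2 scale (adjusted p = 0.0104), and its call was lost without control replicate 1 (adjusted p = 0.0509) or 3 (0.0553). The effect was smaller in GMP than in LT-HSC: the difference was -3.24 ± 0.43 on the log2 scale (adjusted p = 0.00109).

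Mast cell and basophil markers were high in the same libraries. Their summed level was 8131, 10407 and 9067 CPM in AML1-ETO LT-HSC, against 11.1 to 40.7 CPM in control LT-HSC, and 2511 to 3445 CPM in AML1-ETO GMP, against 519.8 to 709.7 CPM in control GMP. All 10 markers had counts in both AML1-ETO groups. Fcer1a, Prss34 and Mcpt4 were at 0 in control LT-HSC, and Mcpt4 and Tpsb2 were at 0 in control GMP. Most of the sum in AML1-ETO LT-HSC was Cpa3, a mast cell protease (6921 to 9403 CPM), while Fcer1a, a chain of the IgE receptor, had 23.4 to 52.3 CPM. The part of these cells or genes in the Slc7a8 level was not tested. The sequence before the start of Slc7a8 (GRCm38.p6, minus strand, chr14:54781887-54782136), shown as the gene that rose in both cell types, held none of the 5 motifs searched on both strands. Beside RUNX these were the amino acid response element of ATF4 (TGATGNAA, in 3.97% of all windows), the antioxidant response element (TGACNNNGC, 12.4%), and the E-box and GATA motifs described with Slc38a5.

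Slc7a8 upstream: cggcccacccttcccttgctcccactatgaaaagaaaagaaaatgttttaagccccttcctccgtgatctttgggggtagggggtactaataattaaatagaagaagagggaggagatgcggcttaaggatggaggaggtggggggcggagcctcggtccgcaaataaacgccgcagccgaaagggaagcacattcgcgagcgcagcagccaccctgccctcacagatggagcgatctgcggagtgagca

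**Figure D2:**
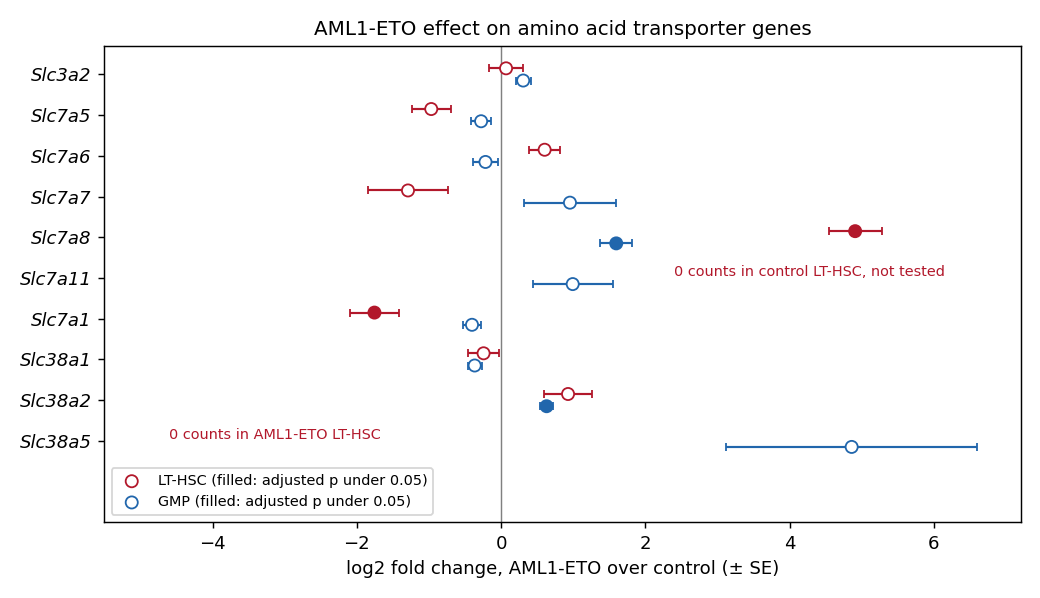
Log2 fold change of AML1-ETO over control (horizontal axis) with its SE for each transporter gene in LT-HSC (red) and GMP (blue); filled points passed the adjusted p of 0.05. Slc7a8 lies furthest to the right in LT-HSC (4.91), and Slc7a11 and Slc38a5 have no LT-HSC point because 1 group had 0 counts.

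Slc7a5 (chr8:121881150-121907694, minus strand) encodes LAT1, the light chain that brings in leucine and other large neutral amino acids. It had 75.3, 51.5 and 79.0 CPM in AML1-ETO LT-HSC, against 89.7, 136, 168 and 181 CPM in control LT-HSC. All AML1-ETO libraries lay below all control libraries, the nearest being control replicate 1. The log2 fold change of -0.97 ± 0.27 missed the threshold at an adjusted p of 0.0529, and passed it without that replicate (adjusted p = 0.0216). It also passed in 5 of 7 other settings: RLE scaling (0.0454), upper-quartile scaling (0.0366), a stricter filter (0.0397), DESeq2 (0.00633) and 1 fit of all 14 libraries (0.00555), but not without a filter (0.0755) or with replicate number as a block (0.196). In GMP the genotypes overlapped, with 184, 172 and 125 CPM in AML1-ETO GMP, against 202, 179, 201 and 206 CPM in control GMP, and the difference of -0.28 ± 0.14 on the log2 scale did not pass (adjusted p = 0.279).

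Slc7a6 (chr8:106168857-106198706, plus strand) and Slc7a7 (chr14:54369442-54417780, minus strand) encode the y+LAT light chains, which export arginine and lysine in exchange for neutral amino acids and sodium. Slc7a6 had 64.7, 70.6 and 70.8 CPM in AML1-ETO LT-HSC, against 42.6, 40.2, 47.4 and 62.4 CPM in control LT-HSC. The groups did not overlap, but the log2 fold change of 0.60 ± 0.21 did not pass the test (adjusted p = 0.109). In GMP it had 55.4, 89.3 and 71.0 CPM with AML1-ETO, against 78.5 to 94.9 CPM in control GMP, and the ranges overlapped (adjusted p = 0.499).

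Slc7a7 is known as a carrier of macrophages and gut epithelium, and its loss in humans causes lysinuric protein intolerance. It had 6.98, 7.21 and 7.21 CPM in AML1-ETO LT-HSC, against 28.5, 21.0, 7.97 and 16.5 CPM in control LT-HSC. Control replicate 3 lay close to the AML1-ETO libraries, and the log2 fold change of -1.29 ± 0.55 did not pass (adjusted p = 0.182), but did without that replicate (0.0307). In AML1-ETO GMP it had 19.0 CPM in replicate 1 and 2.62 and 5.75 CPM in the others, against 3.66 to 5.70 CPM in control GMP. The single high library decided the direction: the log2 fold change was 0.95 ± 0.64 (adjusted p = 0.420) with it and -0.18 without it. That library also held the most monocyte and macrophage markers, with 1511 CPM against 139.6 and 316 CPM in the other AML1-ETO GMP libraries and 151 to 169 CPM in control GMP. All 10 of these markers had counts in both GMP groups, and their part in Slc7a7 was not tested. Slc7a7 shares 232 exon bases, 7.0% of its exons, with Oxa1l on the opposite strand, and no strand setting of the counting is given in the sources used here; counts of the 2 genes in those bases cannot be told apart.

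Slc7a11 (chr3:49892526-50443614, minus strand) encodes xCT, which imports cystine for glutathione synthesis in exchange for glutamate. It was the lowest or second lowest of the set per kilobase. It had 6, 23 and 25 counts in AML1-ETO LT-HSC, which is 0.358, 1.76 and 1.53 CPM, against 0 counts in all 4 control LT-HSC libraries. Set against a floor of 3 counts over the control group, it was at least 25.2-fold higher, a bound that covers counting error only, and the gene did not pass the filter for a test in LT-HSC. In GMP it was detected in every library, at 7.49, 4.45 and 3.06 CPM in AML1-ETO GMP, against 2.57, 1.99, 1.75 and 3.84 CPM in control GMP. The GMP groups overlapped and the log2 fold change of 0.99 ± 0.55 did not pass (adjusted p = 0.329). The sequence before its start (GRCm38.p6, minus strand, chr3:50443614-50443863) is shown because it held 2 matches to the ATF4 element, 66 and 47 bases before the start and on opposite strands, in capitals below. Slc7a11 was not alone in this: Slc7a7 also held 2 matches to that element in 1 window, and 1 of these lay in an overlapping window as well.

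Slc7a11 upstream: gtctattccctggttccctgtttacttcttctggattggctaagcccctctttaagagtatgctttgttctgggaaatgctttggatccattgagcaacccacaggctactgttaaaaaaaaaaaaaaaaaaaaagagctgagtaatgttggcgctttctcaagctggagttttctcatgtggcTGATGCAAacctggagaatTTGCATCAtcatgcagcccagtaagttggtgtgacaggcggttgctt

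Summed over the 5 light chains, AML1-ETO LT-HSC had more light chain RNA for about the same heavy chain RNA. The sum was 166 ± 21.7 CPM per kb in AML1-ETO LT-HSC, against 59.4 ± 10.3 CPM per kb in control LT-HSC (SD, n = 3 and 4), while Slc3a2 stood at 103 ± 18.6 and 105 ± 26.4 CPM per kb. In GMP the sums were 82.3 ± 9.74 CPM per kb with AML1-ETO and 80.0 ± 3.88 CPM per kb in controls. Light chain RNA stood at 1.25 to 1.86 times heavy chain RNA in AML1-ETO LT-HSC, against 0.378 to 0.822 times in control LT-HSC. In GMP the order of the genotypes was the other way round, again without overlap, at 0.876 to 0.986 times in AML1-ETO GMP, against 1.08 to 1.18 times in control GMP. These ratios use the union of exons. Whether light chain RNA exceeded heavy chain RNA in control GMP depends on that choice of length.

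The make-up of that sum is another view of the same levels. Slc7a8 made up 78.0 ± 4.69% of it in AML1-ETO LT-HSC, against 7.97 ± 3.74% in control LT-HSC, and 24.5 ± 7.62% in AML1-ETO GMP, against 8.46 ± 0.944% in control GMP. Slc7a5 was the main light chain of the other groups, with 11.5 ± 3.64% in AML1-ETO LT-HSC, against 64.2 ± 9.15% in control LT-HSC, and 52.5 ± 7.97% in AML1-ETO GMP, against 66.4 ± 1.17% in control GMP. The shares of both genes did not overlap between the genotypes in either cell type. They are shares of RNA per kilobase and say nothing of protein at the membrane.

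**Figure D3:**
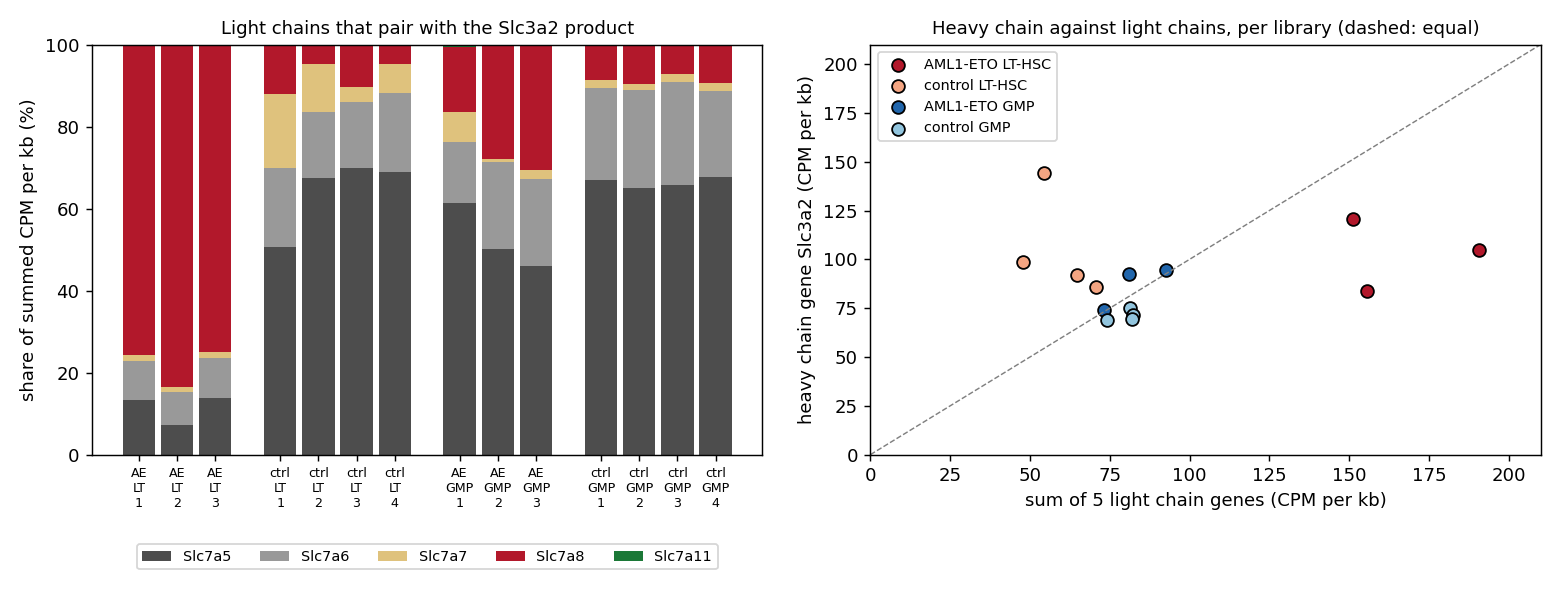
Left, share of each of the 5 light chain genes in their summed CPM per kb (vertical axis, %) in every library (LT, LT-HSC; AE, AML1-ETO; ctrl, control). Right, heavy chain gene Slc3a2 against the light chain sum (both CPM per kb), with equality dashed: the 3 AML1-ETO LT-HSC libraries lie right of the line and the 4 control LT-HSC libraries left of it.

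Slc7a1 (chr5:148327410-148399904, minus strand) encodes CAT1, the main importer of arginine and lysine in many cells and the mouse receptor of ecotropic retroviruses. It had 34.2, 22.2 and 28 CPM in AML1-ETO LT-HSC, against 65.8, 70.2, 150.3 and 121 CPM in control LT-HSC. Every AML1-ETO library lay below every control library, and the controls split into 2 lower and 2 higher libraries. The fall was -1.76 ± 0.34 on the log2 scale (adjusted p = 0.0153), but the call rested on all 3 AML1-ETO libraries, with an adjusted p of 0.0541, 0.101 and 0.0638 without replicates 1, 2 and 3. In GMP it had 109.6, 125 and 87.9 CPM with AML1-ETO, against 142, 142, 142 and 150.0 CPM in control GMP. These groups did not overlap either, and the log2 fold change of -0.40 ± 0.13 did not pass (adjusted p = 0.0905), though it did with DESeq2 (0.0474) and without AML1-ETO replicate 2 (0.016).

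Proliferation markers, like Slc7a1, were lower in AML1-ETO LT-HSC than in control LT-HSC. Their summed level was 319.9, 325 and 507 CPM in AML1-ETO LT-HSC, against 1088, 1324, 2507 and 2163 CPM in control LT-HSC. It was highest in the same 2 control libraries as Slc7a1. Within AML1-ETO LT-HSC the order differed: replicate 1 had the most Slc7a1 and the lowest marker sum. The sum was 2313 to 3039 CPM in AML1-ETO GMP and 2908 to 3161 CPM in control GMP. These ranges overlapped, while those of Slc7a1 in GMP did not. All 10 proliferation markers had counts in each group, and their part in the Slc7a1 level was not tested. The sequence before the first of 2 RefSeq start sites of Slc7a1 (GRCm38.p6, minus strand, chr5:148399905-148400154), shown as the gene that fell, held 1 match to the antioxidant response element, in capitals, and none to the ATF4 element.

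Slc7a1 upstream: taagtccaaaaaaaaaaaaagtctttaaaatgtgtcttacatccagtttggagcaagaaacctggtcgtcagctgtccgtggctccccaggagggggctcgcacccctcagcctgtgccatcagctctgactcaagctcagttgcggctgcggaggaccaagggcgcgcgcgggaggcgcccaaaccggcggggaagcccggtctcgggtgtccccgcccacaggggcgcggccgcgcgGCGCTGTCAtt

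The sodium-coupled carriers went different ways. Slc38a1 (SNAT1; chr15:96571418-96642913, minus strand), a glutamine importer, had 149, 122 and 153 CPM in AML1-ETO LT-HSC, against 206, 141, 149 and 215 CPM in control LT-HSC, and 179, 196 and 173 CPM in AML1-ETO GMP, against 219, 240.1, 232 and 263 CPM in control GMP. It overlapped between genotypes in LT-HSC, where the log2 fold change was -0.24 ± 0.22 (adjusted p = 0.580). It did not overlap in GMP, where -0.37 ± 0.10 missed the threshold (adjusted p = 0.0555) and passed with DESeq2 (0.0125) and without AML1-ETO replicate 2 (0.0224).

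Slc38a2 (SNAT2; chr15:96687392-96699730, minus strand), the carrier that cells raise when amino acids are withdrawn, had 1187, 761 and 421 CPM in AML1-ETO LT-HSC, against 524, 404, 447 and 402 CPM in control LT-HSC. AML1-ETO replicate 3 lay among the controls, and the log2 fold change of 0.93 ± 0.33 did not pass (adjusted p = 0.106), but did without that library (0.0416) and with DESeq2 (0.0325). In GMP the libraries were tighter, with 459, 498 and 459.7 CPM in AML1-ETO GMP, against 311, 332, 293 and 299 CPM in control GMP. The rise there of 0.63 ± 0.09 on the log2 scale passed (adjusted p = 0.00892) without overlap. The call was lost without control replicate 1 (adjusted p = 0.0509) and in 1 fit of all 14 libraries (0.205).

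Slc38a5 (SNAT5; chrX:8271133-8280179, plus strand), which moves glutamine, asparagine and histidine in exchange for protons, followed neither. It had 0 counts in all 3 AML1-ETO LT-HSC libraries, against 9.0, 42.2, 43.1 and 21.2 CPM in control LT-HSC. Against a floor of 3 counts over the AML1-ETO group it was at least 444-fold lower (adjusted p = 0.00406), and it was called without any single library. The gene passed the filter of this fit only through control LT-HSC, where it was high, so these calls add no separate support. In AML1-ETO GMP it had 7.03, 0 and 21.0 CPM, against 0, 0.646, 0.519 and 0.116 CPM in control GMP. The AML1-ETO GMP libraries were far apart, and the log2 fold change of 4.86 ± 1.74 did not pass (adjusted p = 0.130), but passed with DESeq2 (0.0173) and without replicate 2 (0.0164).

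Slc38a5 is known as a gene of red cell precursors, and erythroid markers were high where it was. Their summed level was 46.7 to 131 CPM in AML1-ETO LT-HSC, against 485, 1734, 1264 and 1304 CPM in control LT-HSC, and 4658, 216 and 1488 CPM in AML1-ETO GMP, against 209.7 to 265 CPM in control GMP. The order was not the same throughout: AML1-ETO GMP replicate 1 had the most erythroid marker counts, while replicate 3 had the most Slc38a5 and also the most Klf1, an erythroid transcription factor (27.4 CPM, against 3.15 CPM in replicate 1). All 10 erythroid markers had counts in every group. Their part in the Slc38a5 level was not tested. The sequence before its start (GRCm38.p6, plus strand, chrX:8271131-8271380), shown as the gene with 0 counts in AML1-ETO LT-HSC, held an E-box, in capitals (CACGTG, in 7.15% of all windows). The window held no match to the erythroid factor motif GATA, searched in the form that 11.2% of all windows hold (AGATAA).

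Slc38a5 upstream: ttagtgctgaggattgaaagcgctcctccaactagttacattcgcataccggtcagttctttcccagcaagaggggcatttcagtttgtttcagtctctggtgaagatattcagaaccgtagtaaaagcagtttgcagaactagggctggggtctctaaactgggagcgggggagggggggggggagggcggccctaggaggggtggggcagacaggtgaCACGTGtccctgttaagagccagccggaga

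**Figure D4:**
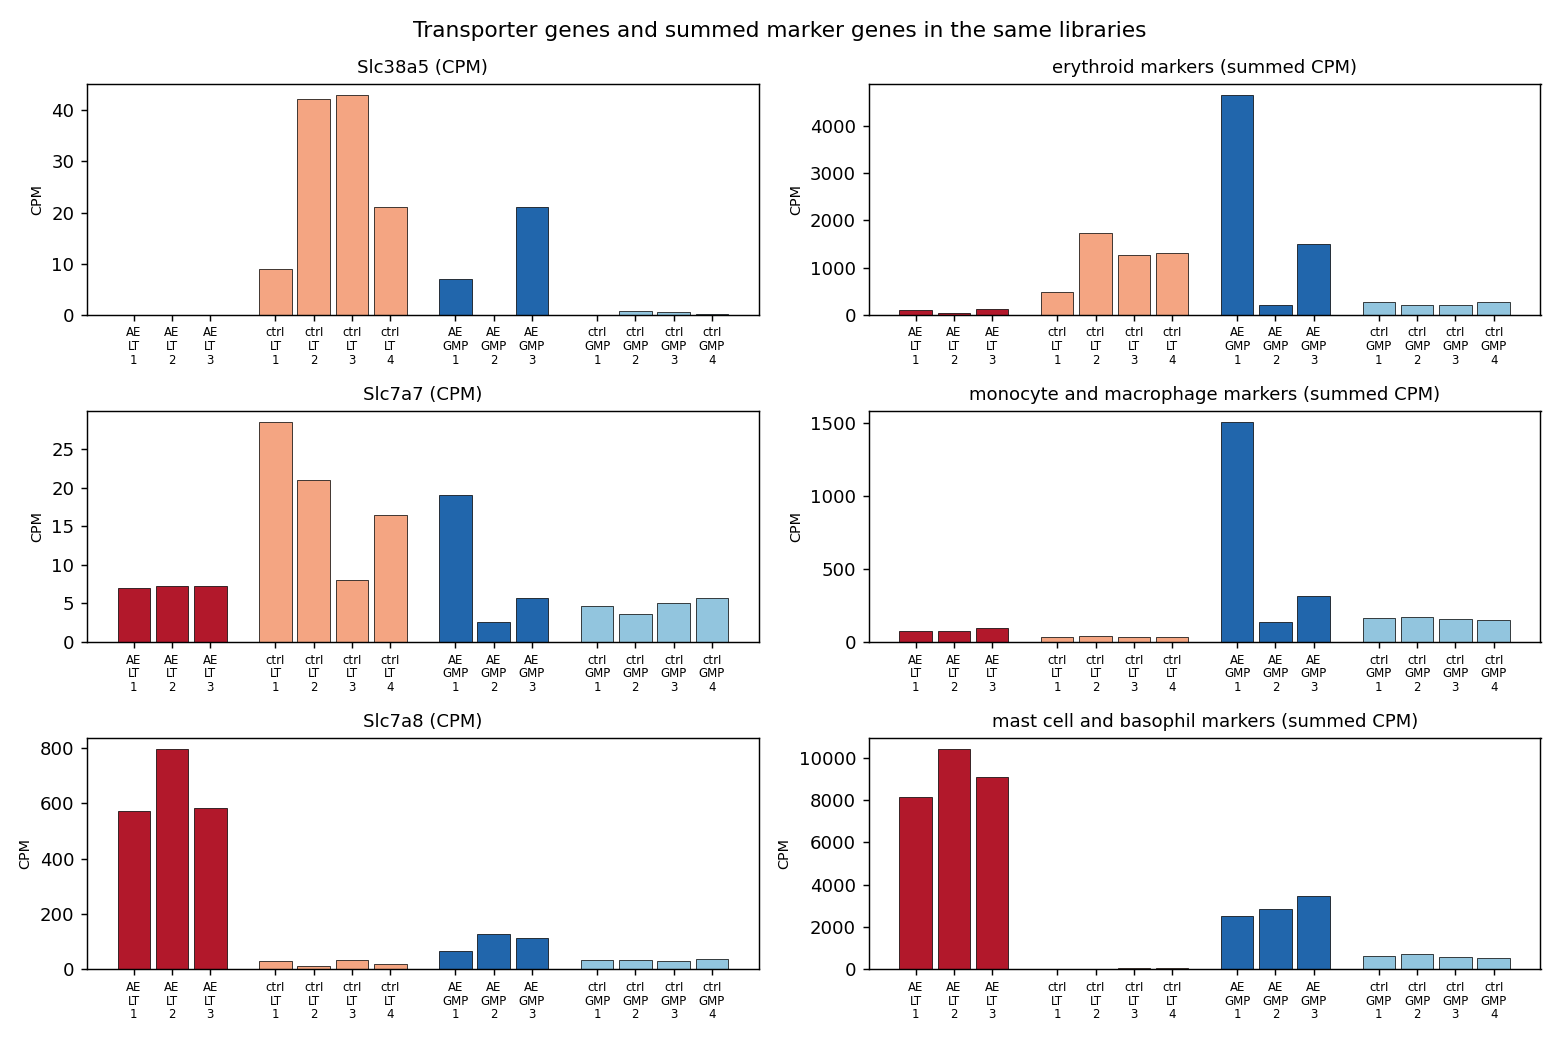
Left column, CPM of Slc38a5, Slc7a7 and Slc7a8 in every library; right column, summed CPM of 10 erythroid, 10 monocyte and macrophage, and 10 mast cell and basophil markers in the same libraries (linear axes from 0; AE, AML1-ETO; ctrl, control; LT, LT-HSC). Slc7a8 and its marker sum are both highest in AML1-ETO LT-HSC, while Slc7a7 is high in control LT-HSC, where monocyte and macrophage markers are low.

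GMP were also compared with LT-HSC within each genotype, in 1 fit of all 14 libraries; both comparisons share that fit's estimate of the spread. In AML1-ETO mice 3 of the 10 genes were higher in GMP and 1 was lower, against 21.7% of 16116 genes called (12.6% higher and 9.15% lower). Without overlap 4 were higher and 1 was lower, against 41.8% (21.1% and 20.7%). In control mice 2 were higher and 3 lower, against 24.5% called (13.9% and 10.6%). Without overlap 3 were higher and 4 lower, against 32.3% (21.0% and 11.3%). The median log2 fold change of the 10 genes was 0.36 in AML1-ETO mice and 0.43 in controls, with 0.00 and 0.02 over all genes.

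In AML1-ETO mice Slc7a8 fell to 64.2 to 127 CPM in GMP, against 573 to 797 CPM in LT-HSC (log2 fold change -2.69 ± 0.33, adjusted p = 8.12e-05). Slc7a1 rose to 87.9 to 125 CPM, against 22.2 to 34.2 CPM in LT-HSC (1.93 ± 0.29, adjusted p = 0.000306), and Slc7a5 to 125 to 184 CPM, against 51.5 to 79.0 CPM (1.22 ± 0.25, adjusted p = 0.00272). None of these 3 genes was called in control mice, where Slc7a8 was 0.54 ± 0.28 (adjusted p = 0.168), Slc7a1 0.49 ± 0.24 (0.150) and Slc7a5 0.45 ± 0.21 (0.135) on the same scale. Slc38a5 was at least 144-fold higher in AML1-ETO GMP than in AML1-ETO LT-HSC (adjusted p = 0.0107), although GMP replicate 2 was at 0. The gene passed the filter of this fit with the help of control LT-HSC, where it was high; in a fit of the 7 AML1-ETO libraries alone it did not pass the filter and was not tested. Slc38a2 had 459 to 498 CPM in AML1-ETO GMP, against 421 to 1187 CPM in AML1-ETO LT-HSC (-0.74 ± 0.26, adjusted p = 0.0567), and passed without AML1-ETO LT-HSC replicate 3 (0.00247). The other 5 genes, Slc3a2, Slc7a6, Slc7a7, Slc7a11 and Slc38a1, were not called in AML1-ETO mice.

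In control mice Slc38a5 ran the other way, with 0 to 0.646 CPM in GMP, against 9.0 to 43.1 CPM in LT-HSC (log2 fold change -6.47 ± 1.55, adjusted p = 0.00989). Here too Slc38a5 passed the filter with the help of control LT-HSC, where it was high. Slc7a11 was at least 52.5-fold higher in control GMP than in control LT-HSC (adjusted p = 0.00116). It passed the filter of this fit through its GMP counts, which were low (1.75 to 3.84 CPM in control GMP), and failed that of the LT-HSC fit. Slc7a6 rose to 78.5 to 94.9 CPM in GMP, against 40.2 to 62.4 CPM in LT-HSC (0.81 ± 0.18, adjusted p = 0.00498). Slc3a2 and Slc7a7 fell by 0.57 ± 0.17 (adjusted p = 0.0263) and 1.96 ± 0.60 (adjusted p = 0.0278) on the log2 scale. Both calls were lost without any 1 of the control GMP libraries (adjusted p of 0.0521 to 0.0675 for Slc3a2, 0.0586 to 0.0783 for Slc7a7), and also without control LT-HSC replicate 2 for Slc3a2 (0.0535) and replicate 1 for Slc7a7 (0.0726).

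The AML1-ETO effect itself was compared between the cell types by an interaction term, which called 4 of the 10 genes, 2 in each direction, against 6.34% of all genes (3.43% higher and 2.91% lower). The effect was lower in GMP than in LT-HSC for Slc7a8, as given above. Slc7a11 was also called lower (adjusted p = 0.0347), but it had failed the filter in LT-HSC, passed that of the 14-library fit through its GMP counts, and was set there against a control LT-HSC group at 0. It was higher in GMP for Slc38a5 (adjusted p = 0.00684) and for Slc7a1, by 1.44 ± 0.37 on the log2 scale (adjusted p = 0.0313). The calls of Slc7a1 and Slc7a11 were each lost without any 1 of 9 of the 14 libraries, with an adjusted p of up to 0.112 and 0.0933. For Slc7a8 and Slc38a5 the call held without each library in turn. For Slc38a5, however, the contrast rests on an AML1-ETO LT-HSC group at 0, so its size has no estimate. Its change in GMP alone was not called by edgeR (adjusted p = 0.130). Slc7a5, called between the cell types in AML1-ETO mice and not in control mice, was not called for this difference (adjusted p = 0.179).

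The genes whose pattern over the 14 libraries was nearest to each transporter gene, by the root mean square difference of centred log2 CPM among 11984 genes, are given as a description. Slc7a8 was nearest to Fam189b, which averaged 1078 CPM in AML1-ETO LT-HSC, against 74.6 CPM in control LT-HSC, and 162 CPM in AML1-ETO GMP, against 59.7 CPM in control GMP; the difference between the 2 genes was 0.502 of a spread of 1.88. Slc7a5 was nearest to Mybbp1a (0.142 of a spread of 0.620), Slc7a1 to Ctps (0.202 of 0.922) and Slc38a2 to Midn (0.193 of 0.526). Slc38a5 was nearest to Rhag, but at 0.930 of a spread of 3.40. For Slc3a2, Slc7a6, Slc7a7, Slc7a11 and Slc38a1 the nearest genes were Nop53, Cd47, Epsti1, Pde7b and Kat2a, at 0.132 to 0.675.

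Other genes of amino acid handling were read from 7 lists. In LT-HSC the synthesis and tRNA charging genes that were called were lower with AML1-ETO. Among targets of the amino acid response, 4 of 22 genes tested were lower with AML1-ETO and 0 were higher (median log2 fold change -0.46), against 4.69% lower and 7.59% higher over all genes in this comparison. Asns, which makes asparagine, averaged 0.438 CPM in AML1-ETO LT-HSC, against 49.5 CPM in control LT-HSC (log2 fold change -6.71 ± 0.96, adjusted p = 0.00501). Mthfd2 (-2.77 ± 0.62), Phgdh (-1.34 ± 0.30) and Shmt2 (-0.74 ± 0.17), enzymes of serine and one-carbon metabolism, were the others. Of 20 cytosolic aminoacyl-tRNA synthetases 6 were lower and 0 higher (median -0.50), led by Mars (-1.06 ± 0.26, adjusted p = 0.0339) and Gars (-1.0 ± 0.19, adjusted p = 0.0146), which load methionine and glycine on tRNA. The count of lower synthetases was 0 without AML1-ETO replicate 1 or 2, 1 without replicate 3, 2 without control replicate 4 and 7 at most. That of lower response targets was 1 without any 1 AML1-ETO library or control replicate 4, and 5 at most.

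In LT-HSC 4 of 26 genes of mTORC1 amino acid sensing were higher and 0 lower (median 0.17), beside 7.59% and 4.69% of all genes. These were Flcn (256 ± 31.6 CPM in AML1-ETO LT-HSC, against 96.6 ± 8.60 CPM in control LT-HSC; 1.5 ± 0.17, adjusted p = 0.00201), Rptor (1.47 ± 0.21), Sesn1 (1.14 ± 0.20) and Rragc (0.95 ± 0.26). They encode folliculin, which acts on the Rag GTPases, the mTORC1 subunit Raptor, the leucine sensor family member sestrin 1, and the GTPase RagC. Between 2 and 4 of the list were called without any single library, the fewest without AML1-ETO replicate 2. Of 18 other amino acid carriers, Slc43a2, a leucine carrier, rose (1.57 ± 0.25, adjusted p = 0.00749), as did Slc38a10 (0.77 ± 0.18), and Slc43a3, a purine nucleobase carrier of the same family, fell (-1.86 ± 0.30, adjusted p = 0.00786). None of the 3 was called without AML1-ETO replicate 2.

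Glutamine metabolism in LT-HSC had 1 of 13 genes higher and 2 lower (median -0.83). Over all genes 7.59% were called higher and 4.69% lower in this comparison, against which all 3 lists given here stand. A single call in a list of this size is near these shares. Cad, the first enzyme of pyrimidine synthesis, averaged 87.8 ± 17.0 CPM with AML1-ETO, against 307 ± 117 CPM in controls (-1.71 ± 0.30, adjusted p = 0.0101), Got2, the mitochondrial aspartate aminotransferase, was -1.07 ± 0.21, and Glud1, glutamate dehydrogenase, was 0.69 ± 0.17. Of 14 genes of branched-chain and arginine metabolism 2 fell, Ass1 (-1.89 ± 0.49, adjusted p = 0.0416) of arginine synthesis and Srm (-1.34 ± 0.28, adjusted p = 0.0195) of spermidine synthesis. Of 14 glutathione and cystine genes 1 fell, Ggt5 (-3.0 ± 0.77, adjusted p = 0.0410). Without any 1 AML1-ETO library, 0 genes of these 3 lists were called, save 1 lower glutamine gene without replicate 3. Without 1 control library the lower calls numbered 2 to 4 for glutamine, 0 to 3 for glutathione and 0 to 2 for branched-chain and arginine genes. Proliferation markers were lower in AML1-ETO LT-HSC, and B and plasma cell markers higher in control LT-HSC, as given above. The part of these markers in the lists was not tested.

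In GMP 3 of 22 amino acid response targets were higher and 3 lower (median -0.26); over all genes 5.47% were called higher and 3.96% lower in this comparison, against which the other lists stand too. The stress genes Ddit3, which averaged 110 ± 28.1 CPM in AML1-ETO GMP, against 31.7 ± 7.85 CPM in control GMP (1.81 ± 0.24, adjusted p = 0.00844), Nupr1 (5.60 ± 1.0) and Cebpb (1.12 ± 0.25) rose, while Phgdh (-1.06 ± 0.23), Jdp2 (-0.77 ± 0.16) and Shmt2 (-0.67 ± 0.13) fell. Hmox1, the haem oxygenase of the glutathione list, was very uneven, at 180 ± 223 CPM in AML1-ETO GMP, against 2.89 ± 1.47 CPM in control GMP (5.98 ± 0.98, adjusted p = 0.0159), and Gpx4 rose by 0.60 ± 0.12. A single gene fell in each of 4 lists: Slc36a1 (-0.57 ± 0.14) of 18 carriers, Farsb (-0.54 ± 0.12) of 20 synthetases, Ppat (-0.63 ± 0.11) of 13 glutamine genes, and, of 13 branched-chain and arginine genes, Bcat1, which had 0 counts in AML1-ETO GMP and was at least 38.9-fold lower. Bcat1 passed the filter only through control GMP. Of 26 mTORC1 genes 0 were called by edgeR, with 3 higher and 2 lower at an unadjusted p under 0.05, 2 higher with DESeq2 and up to 2 in each direction without 1 library. Without any 1 of the control libraries, 0 genes of these lists were called lower, and 1 or 2 response targets and 0 glutathione genes were called higher. Without AML1-ETO replicate 2 the lower calls were more, with 7 synthetases, 6 response targets and 5 glutamine genes. Markers of other cells were also called higher in AML1-ETO GMP: 7 of 10 monocyte and macrophage, 7 of 9 mast cell and basophil and 4 of 10 erythroid markers tested, and 0 lower. So were 3 of 8 megakaryocyte, 3 of 4 endothelial and stromal and 3 of 9 LT-HSC markers, with 0 lower. Not every library shared this. Replicate 2 had 139.6 CPM of monocyte and 216 CPM of erythroid markers, against 151 to 169 and 209.7 to 265 CPM in control GMP. Their part in these lists was not tested.

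**Figure D5:**
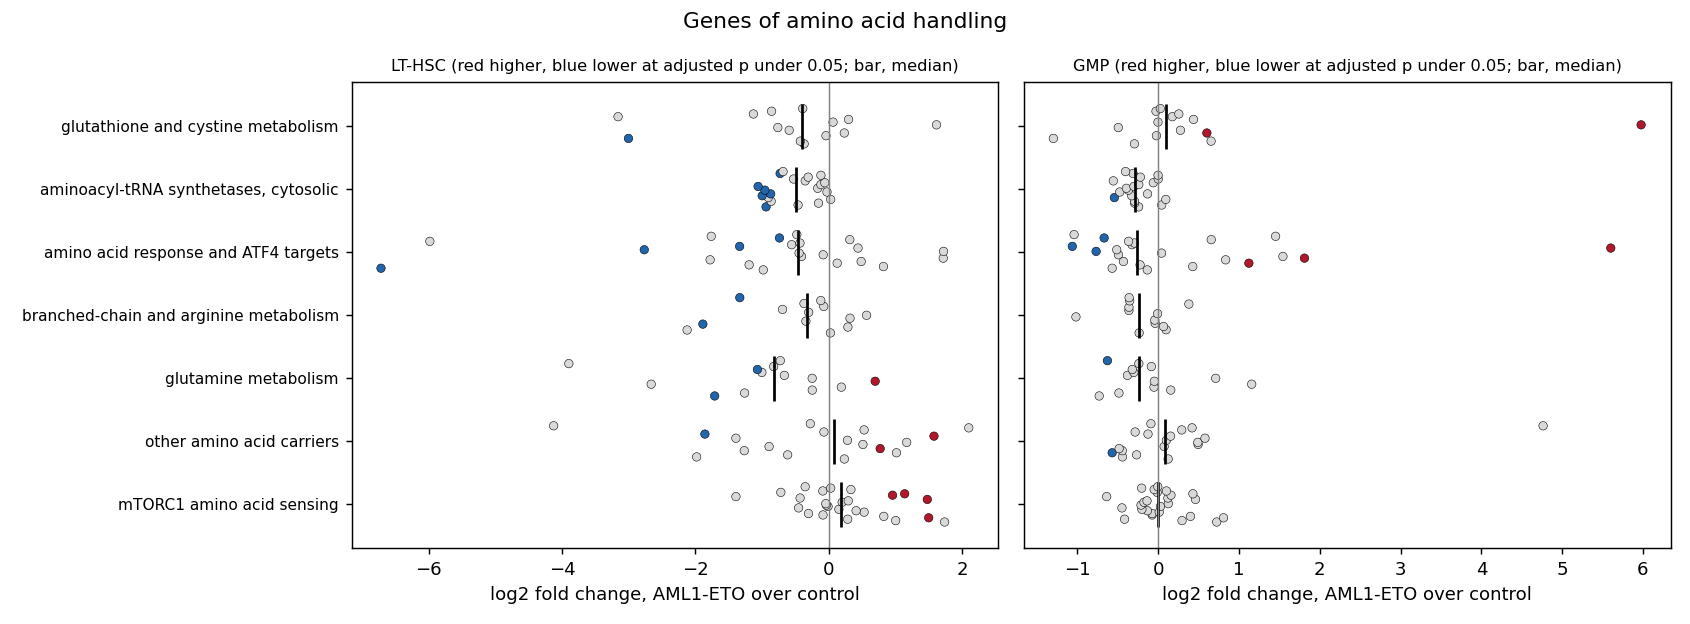
Log2 fold change of AML1-ETO over control (horizontal axis) for each gene tested in 7 lists of amino acid handling, in LT-HSC (left) and GMP (right, other scale); red and blue points passed the adjusted p of 0.05 as higher and lower, bars are list medians, and Bcat1, at 0 in AML1-ETO libraries, is not drawn. In LT-HSC blue points lie among synthetases (6) and amino acid response targets (4), and red ones among mTORC1 genes (4).

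Over all genes more were called higher than lower in GMP against LT-HSC (12.6% and 9.15% in AML1-ETO mice, 13.9% and 10.6% in control mice). That excess turned round with RLE scaling and DESeq2. In AML1-ETO mice 11 of 20 synthetases were higher in GMP and 0 lower (median 0.82), and in control mice 7 were higher and 1 lower (median 0.38). Asns averaged 11.7 ± 0.536 CPM in AML1-ETO GMP, against 0.438 ± 0.428 CPM in AML1-ETO LT-HSC (4.72 ± 0.75, adjusted p = 0.000515). Of 13 glutamine genes 8 were higher and 0 lower in AML1-ETO GMP, and 5 were higher and 1 lower in control GMP. Of 26 mTORC1 genes 2 were higher and 4 lower in AML1-ETO GMP, and 3 and 3 in control GMP. Of 20 other carriers 4 were higher and 3 lower in AML1-ETO GMP, and 6 and 2 in control GMP. For 23 response targets the counts were 6 and 0, and 4 and 2. For 14 glutathione genes they were 4 and 0, and 3 and 2, and for 15 branched-chain and arginine genes 6 and 0, and 5 and 0. For the difference of the AML1-ETO effect between the cell types, 4 of 23 amino acid response targets were called higher in GMP and 0 lower. Of 20 synthetases 0 were called in either direction, and of all genes 3.43% were called higher and 2.91% lower. At an unadjusted p under 0.05 6 synthetases were higher and 0 lower, and 4 were called higher with DESeq2.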

How the data were processed

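The deposited table holds raw counts per gene for 14 libraries of poly(I:C)-treated mice. Per the submitters' processing notes, the tools were featureCounts 1.5.0-p3 and HISAT2 2.0.5, on mm10; the labels name the SMART-Seq v4 and SMARTer Stranded kits without their roles. The sources used here give neither annotation release nor strand setting. The authors deposited these counts unnormalized, with totals of 13210952 to 19403864. The table has 105 rows that repeat a symbol (Ddit3 is 1 such symbol) and 27 with a date in place of a symbol; all stayed in the library sizes.

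Each comparison used edgeR 4.0.16 in R 4.3.3 (filterByExpr, TMM, glmQLFit, glmQLFTest, Benjamini-Hochberg over all genes tested, called at an adjusted p under 0.05), which was tested on simulated data. The AML1-ETO comparisons used the 7 libraries of a cell type, and the others all 14. SE is the log2 fold change over the square root of F. For a fold, a group at 0 was given 3 counts in all as its floor. CPM per kb uses union exons of GENCODE M21; promoter windows are from RefSeq (GRCm38.p6) and were found for 8 genes, not for Slc7a5 and Slc38a1. The floors and bounds cover counting error only.

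The 10 genes, the 7 lists and the marker lists were chosen with earlier results of these data known. From each list and comparison at most 4 called genes are named, those with the largest change among genes with at least 20 counts on average and no overlap, except that counts of 5 or fewer may be named in full; the nearest gene in pattern is named for each transporter gene. Alternatives were other scalings, DESeq2 1.42.0, other filters, a replicate block, other sets of libraries in the fit, and each library left out.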

Additional observations from a re-analysis of the deposited data

Results flagged for a closer look

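In control GMP, replicate 4 had 150.0 CPM of Slc7a1, and its gap to the next library was 0.960 of the range of the 4 libraries, above Dixon's critical value for 4 samples. The other 3 lay at 142 CPM, so the distance itself was small; chance marks about 1 in 20 groups in this way.

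The AML1-ETO effect differed between GMP and LT-HSC for 4 genes by edgeR's interaction test, with an adjusted p of 0.00109 for Slc7a8, 0.0347 for Slc7a11, 0.0313 for Slc7a1 and 0.00684 for Slc38a5. Slc7a8 was higher with AML1-ETO in both cell types and more so in LT-HSC. Slc38a5 had 0 counts in AML1-ETO LT-HSC, against 9.0 to 43.1 CPM in control LT-HSC, and was at 0 to 21.0 CPM in AML1-ETO GMP, against 0 to 0.646 CPM in control GMP.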

How the results depend on the processing

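The number of genes called for AML1-ETO against control in LT-HSC was 1791; it was 2801 with DESeq2, 525 with a replicate block, 3166 in 1 fit of all 14 libraries and 334 to 2376 without 1 library. In GMP it was 1319, with 2309 (DESeq2), 816 (no filter), 112 (replicate block), 458 (14 libraries) and 131 to 3514 without 1 library. For the difference of the effect it was 1021, with 1781 (DESeq2), 568 (replicate block) and 471 to 1477 without 1 library. Without 1 library it was 2092 to 3298 for GMP against LT-HSC in AML1-ETO mice (3505 with all) and 2660 to 4584 in control mice (3949). The share of calls that were higher fell to 51.7% with upper-quartile scaling and 47.3% with DESeq2 in LT-HSC, against 61.8%; in GMP it was 68.1% without a filter, 95.5% with the block, 86.0% with 14 libraries and 44.1% to 91.1% without 1 library, against 58.0%; in GMP against LT-HSC it was 48.5% to 49.7% in AML1-ETO mice, against 57.9%, and 40.6% to 47.4% in control mice, against 56.9%, over those 2 and RLE scaling. RLE scaling moved the median of all genes to -0.10 and -0.12 there.

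Of the transporter genes, 1 was higher in LT-HSC, but 2 with DESeq2 and 3 in the 14-library fit; 2 were lower, but 1 with the replicate block (Slc7a1 at an adjusted p of 0.0726) and 3 with RLE or upper-quartile scaling, DESeq2, a stricter filter or 14 libraries. In GMP 2 were higher, but 4 with DESeq2, 0 with the block (Slc7a8 0.0655, Slc38a2 0.102) and 1 in the 14-library fit; 0 were lower, but 1 with upper-quartile scaling and 2 with DESeq2. In AML1-ETO mice 1 was lower in GMP than in LT-HSC, but 2 with RLE, upper-quartile scaling, DESeq2 or a stricter filter. For the difference 2 were higher, but 1 with the block, and 2 lower, but 1 without a filter or with the block. Without 1 library the higher and lower counts ranged over 1 to 2 and 1 to 3 (LT-HSC), 0 to 3 and 0 to 2 (GMP), 3 to 3 and 1 to 2 (AML1-ETO mice), 2 to 4 and 1 to 3 (control mice) and 1 to 3 and 1 to 2 (difference).

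The replicate numbers share no stated source. Deviations of same-numbered libraries correlated at 0.0910 to 0.161 between AML1-ETO GMP and AML1-ETO LT-HSC (different numbers -0.0920 to -0.0213). Between the other groups they correlated at -0.0765 to 0.0359. Deviations were centred within each group, so values for same and different numbers are not independent of each other. Not every pair passed 0.1, a shared origin was not tested, and the numbers were not taken as pairs. Signs turned only for genes that were not called. Slc3a2 in LT-HSC was -0.072 with upper-quartile scaling, -0.0076 with the block, -0.035 with 14 libraries and -0.067 to 0.24 without 1 library (below 0 without AML1-ETO replicate 1 or control replicate 4). Slc7a7 in GMP ranged over -0.18 to 1.39 and, in GMP against LT-HSC of AML1-ETO mice, -0.76 to 0.81, below 0 without AML1-ETO GMP replicate 1. Slc7a6 in that comparison was -0.060 with RLE scaling or DESeq2, -0.063 with upper-quartile scaling, and -0.11 to 0.23 without 1 library, below 0 without AML1-ETO GMP replicate 2. For the difference of the effect Slc38a2 ranged over -0.51 to 0.19 (above 0 without AML1-ETO LT-HSC replicate 1) and Slc38a1 over -0.15 to 0.038 (above 0 without AML1-ETO LT-HSC replicate 3, control LT-HSC replicate 2 or 3, or control GMP replicate 4). The cause was not tested. Depth limits Slc7a11 and Slc38a5, each with a group at 0.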
